A study of Mus musculus with 6 samples.

Results

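Lysophosphatidic acid (LPA) and sphingosine 1-phosphate (S1P) are small lipids that act on cells from outside through G protein-coupled receptors. The 10 genes described here are the LPA receptor genes Lpar1, Lpar2, Lpar3, Lpar4 and Lpar6, the S1P receptor genes S1pr1, S1pr2, S1pr3 and S1pr5, and Enpp2, which encodes autotaxin, the secreted enzyme that makes most extracellular LPA. They were chosen by gene symbol, and all 10 were found among the 24015 symbols counted. RNA-Seq was performed on whole sciatic nerves of mice at postnatal day 14. The 3 control libraries came from Rnf40 fl/fl mice, and the 3 Rnf40ΔSC libraries (labelled cko) from mice with the same floxed alleles plus a Dhh::Cre transgene. This Cre is active in developing Schwann cells (SCs), so other cells of the nerve keep Rnf40. Each library was made from 3 pooled nerves per the study's methods. The labels give a mixed 129SvJ/C57Bl/6J background for both genotypes, whereas the methods give C3H and C57Bl/6J. The comparison of Rnf40ΔSC with control nerves asks which transcripts differ in nerves whose SCs lack this E3 ligase for histone H2B.

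Autotaxin removes choline from lysophosphatidylcholine to make LPA, and lipid phosphate phosphatases on the cell surface destroy it again. S1P is made inside cells from sphingosine, is exported by transporters, and is broken down by a lyase and by phosphatases. The receptors couple to Gi, Gq and G12/13 proteins and through the latter to actin and the transcription factors SRF and YAP. In peripheral nerve, SCs are known to respond to LPA through the receptor encoded by Lpar1, while S1pr1 is best known as a receptor of endothelial cells. A whole nerve also holds fibroblasts, perineurial cells, pericytes and macrophages, and in bulk RNA fewer cells of a type and less RNA per cell cannot be told apart.

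Promoter sequences from RefSeq (build GRCm38.p6, 250 bases before and 50 after a start) matched 8 of the 10 genes, with 10 starts in all. None was found for S1pr1 and Enpp2. Shown are those of the 3 receptor genes that have an entry and changed, Lpar1 being lower and Lpar4 and S1pr3 higher in Rnf40ΔSC nerves. Of the 3 listed starts of Lpar1, the second and the third are printed. Capitals mark matches to 6 motifs searched on both strands. The EGR motif was GCGNGGGCG, the SOX motif ACAANG and the TEAD motif GGAATG. The POU octamer was ATGCAAAT, the CRE motif TGACGTCA, and the TATA box was spelled TATAAA. No printed matches overlap.

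Lpar1, start 2, chr4:58553244-58553543, minus strand: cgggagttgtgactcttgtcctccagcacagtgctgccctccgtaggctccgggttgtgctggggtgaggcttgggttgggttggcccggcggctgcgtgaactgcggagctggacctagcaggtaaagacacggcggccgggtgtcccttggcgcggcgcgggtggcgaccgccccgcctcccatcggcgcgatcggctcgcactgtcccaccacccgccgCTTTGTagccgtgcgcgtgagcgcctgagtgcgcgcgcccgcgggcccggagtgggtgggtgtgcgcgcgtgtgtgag
Lpar1, start 3, chr4:58499354-58499653, minus strand: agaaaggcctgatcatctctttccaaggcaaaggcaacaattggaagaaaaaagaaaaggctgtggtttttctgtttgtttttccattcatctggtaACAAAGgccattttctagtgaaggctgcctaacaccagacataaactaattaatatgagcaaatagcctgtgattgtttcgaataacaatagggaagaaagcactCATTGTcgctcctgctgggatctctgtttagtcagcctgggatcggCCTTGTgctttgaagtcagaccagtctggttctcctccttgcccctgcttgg
Lpar4, chrX:106920375-106920674, plus strand: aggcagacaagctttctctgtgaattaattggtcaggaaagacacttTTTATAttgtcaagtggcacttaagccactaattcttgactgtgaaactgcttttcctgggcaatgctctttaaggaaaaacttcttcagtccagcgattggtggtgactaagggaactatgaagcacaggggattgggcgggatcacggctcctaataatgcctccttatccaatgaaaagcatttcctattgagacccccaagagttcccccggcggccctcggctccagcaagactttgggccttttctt
S1pr3, chr13:51408368-51408667, plus strand: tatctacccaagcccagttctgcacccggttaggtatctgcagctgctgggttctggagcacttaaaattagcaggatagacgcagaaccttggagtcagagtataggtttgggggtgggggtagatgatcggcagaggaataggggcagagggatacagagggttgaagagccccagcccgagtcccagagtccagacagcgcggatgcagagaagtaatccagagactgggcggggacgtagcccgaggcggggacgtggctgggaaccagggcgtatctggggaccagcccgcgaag

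Lpar1 start 2 held 1 SOX match on the opposite strand, from base -28 to base -23 counted from the start, and 71.7% of its bases were G or C. Start 3 held 3 SOX matches, beginning at bases -153, -48 and -2, at 43.7% G or C. Lpar1 start 1 and the S1pr3 start held no match to the 6 motifs. The Lpar4 promoter held a TATA match on the opposite strand, from base -203 to base -198. Among 32851 mouse promoters of this length, 41.2% held a SOX match, 13.6% a TATA match, 14.7% a TEAD match, 5.55% an EGR match, 1.79% a CRE match and 1.74% a POU octamer. Median G or C content over these promoters was 52.7%. A match is a run of letters and not a binding site.

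Libraries differed in depth. Control libraries 1 to 3 held 1317167, 1992622 and 2468765 deposited counts. Rnf40ΔSC libraries 1 to 3 held 2184268, 1459387 and 2186710. Rnf40ΔSC replicate 3 stood apart from its group in skeletal muscle genes. The 15 markers of that tissue summed to 6715 normalized counts there, against 227 and 531.5 in Rnf40ΔSC replicates 1 and 2 and 9327, 7118 and 5255 in control libraries. Normalized counts are reads scaled by TMM (trimmed mean of M values) to a common library size. Rnf40 itself was counted with 82, 116 and 165 reads in control and 109, 75 and 118 reads in Rnf40ΔSC libraries. Their normalized counts were 130.2, 126 and 142 against 90.2, 90.4 and 94.2, so that the groups did not overlap. Means were 133 ± 8.15 and 91.6 ± 2.22 (SD, n = 3 each), and the log2 fold change was -0.54 ± 0.14 (SE; edgeR adjusted p = 0.00242). Reads from other cells and from outside the floxed exons can be among these counts. With libraries scaled by their totals instead, the log2 fold change of Rnf40 was -0.27 (edgeR adjusted p = 0.12). Markers of the labelled tissue were abundant in every library, with between 3211 and 13914 reads of Prx, a marker of myelinating SCs, and between 476 and 1259 reads of Sox10, a marker of SCs at any stage.

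Of the 10 genes, 7 had enough reads to be tested. Taken with an adjusted p of at most 0.05 from edgeR, 2 were higher in Rnf40ΔSC nerves (Lpar4 and S1pr3) and 3 were lower (Enpp2, S1pr1 and Lpar1). Over all 11371 genes tested, 15.4% were higher and 16.2% were lower by the same rule. In the same 5 genes the 3 control and the 3 Rnf40ΔSC libraries did not overlap, 2 of them higher and 3 lower, against 22.0% higher and 21.6% lower of all tested genes. The study, which used DESeq2, also asks for a log2 fold change of at least 0.8 in either direction and a base mean of at least 20, with a P of at most 0.05. With these limits on fold change and mean normalized counts, and an adjusted p of at most 0.05 in place of the study's P (called the study's limits below), 1 gene was lower (Enpp2) and 0 were higher in edgeR. Of all tested genes, 5.05% were lower and 3.73% higher by these limits. With total-count scaling Lpar4 met them (1.04) and Enpp2 did not (-0.66). Lpar4 also met them without control replicate 2 (0.91) or Rnf40ΔSC replicate 1 (0.82), S1pr1 met them without Rnf40ΔSC replicate 3 (-0.84), and Enpp2 missed them without Rnf40ΔSC replicate 2 (-0.79). DESeq2 also gave 0 higher members by these limits, and 2 members were higher at an unadjusted p under 0.05 in edgeR.

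**Figure D1:**
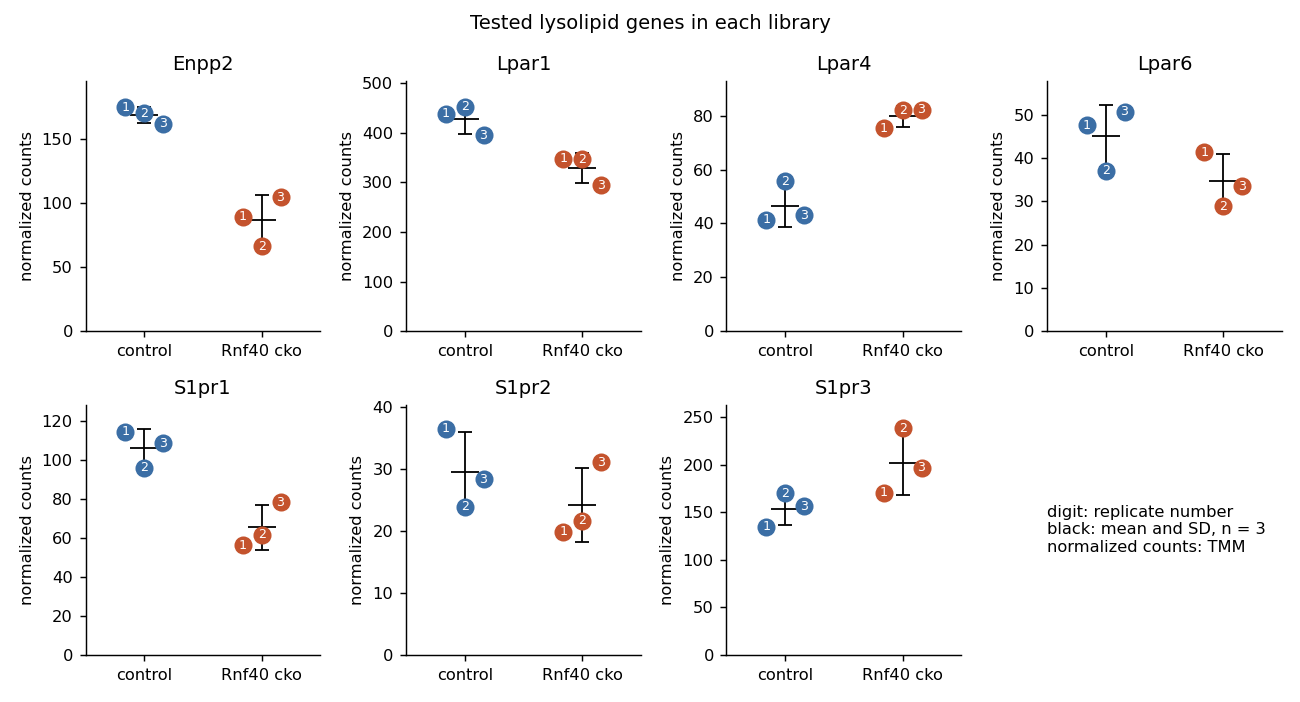
TMM-normalized counts (y axis, from 0) of the 7 tested genes in each of the 3 control (blue) and 3 Rnf40ΔSC (cko, red) libraries; digits are replicate numbers, and black marks show the mean and SD. Enpp2, Lpar1 and S1pr1 were lower and Lpar4 and S1pr3 higher in all 3 Rnf40ΔSC libraries than in any control library, while Lpar6 and S1pr2 overlapped.

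With TMM scaling Enpp2 showed the largest change among the 7 tested genes, and with total-count scaling Lpar4 did (1.04). Enpp2 lies on chromosome 15 (54670453 to 54751701, minus strand, in mm9). Its normalized counts were 175, 170.0 and 162 in control replicates 1, 2 and 3, from 110, 156 and 188 reads. In Rnf40ΔSC replicates 1, 2 and 3 they were 89.4, 66.3 and 104.5, from 108, 55 and 131 reads. All Rnf40ΔSC libraries lay below all control libraries, and Rnf40ΔSC replicate 2 was the lowest. Means were 169 ± 6.50 in control and 86.7 ± 19.3 in Rnf40ΔSC nerves (SD, n = 3 each). The fitted level was 1.91-fold lower, a log2 fold change of -0.93 ± 0.14 (SE; edgeR adjusted p = 2.75e-06). The call was kept in each of the 14 alternatives tried, between -1.07 and -0.66. The fold change went under the limit of 0.8 when Rnf40ΔSC replicate 2 was left out (-0.79) and with total-count scaling (-0.66).

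Most markers that SCs carry at any stage were lower as well. Of 8 such genes, 6 were lower (Sox10, S100b and Cdh19 among them) and 2 higher (Foxd3 and Gfap), with a median log2 fold change of -0.64, and with total-count scaling 5 were lower and 2 higher. Without control replicate 3 there was 1 higher gene. None of the 8 was at 0 in all libraries. All 8 markers of myelinating SCs were lower, with a median of -1.98. Per read of Sox10, a transcription factor of the SC lineage, there were 0.182, 0.161 and 0.149 reads of Enpp2 in control and 0.142, 0.116 and 0.176 in Rnf40ΔSC libraries. These ratios overlapped, at 0.164 ± 0.0168 and 0.145 ± 0.0306 (SD, n = 3 each). Sox10 itself was lower, at a log2 fold change of -0.79 ± 0.09 (SE; edgeR adjusted p = 8.8e-09), and its reads are not a count of SCs. Fibroblast markers were lower as well, in 6 of 7 genes with a median of -0.37, though with total-count scaling 3 were lower and 1 was higher. They summed to 104500, 101900 and 110600 normalized counts in control and 78040, 74820 and 73860 in Rnf40ΔSC libraries, with Col3a1 at 46.5% of the sum and none at 0. The part of either cell type in the change of Enpp2 was not tested.

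Lpar1 was the most abundant receptor gene. It lies on chromosome 4 (58448127 to 58566770, minus strand, in mm9) and encodes a receptor of the older LPA receptor family, which also holds Lpar2 and Lpar3. Normalized counts were 438, 453 and 395 in control and 348, 347 and 294.5 in Rnf40ΔSC replicates 1, 2 and 3. The lowest control library was above the highest Rnf40ΔSC library. The mean was 429 ± 30.2 in control and 329.8 ± 30.6 in Rnf40ΔSC nerves (SD, n = 3 each). The fitted level was 1.30-fold lower, a log2 fold change of -0.38 ± 0.10 (SE; edgeR adjusted p = 0.00318). This call depends on the scaling. With total counts in place of TMM the median of all genes moved up by 0.27, and Lpar1 was then at -0.11 (edgeR adjusted p = 0.395). Per read of Sox10, Lpar1 had 0.458, 0.430 and 0.365 reads in control and 0.553, 0.605 and 0.497 in Rnf40ΔSC libraries. This ratio was higher in all 3 Rnf40ΔSC libraries because Sox10 fell more than Lpar1. The log2 fold change of Sox10 was -0.79 ± 0.09 (SE; edgeR adjusted p = 8.8e-09). Reads of Sox10 are not a count of SCs. The part of SCs in the lower Lpar1 was not tested.

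Lpar4 changed in the other direction. It lies on the X chromosome (104115964 to 104129239, plus strand, in mm9) and encodes a receptor of the P2Y-like LPA receptor family, as does Lpar6. It was counted with 26, 51 and 50 reads in control and 91, 68 and 103 reads in Rnf40ΔSC replicates 1, 2 and 3, or 41.3, 55.6 and 43.0 against 75.3, 82.0 and 82.2 normalized counts. All Rnf40ΔSC libraries were above all control libraries. Means were 46.6 ± 7.79 in control and 79.8 ± 3.89 in Rnf40ΔSC nerves (SD, n = 3 each). The fitted rise was 1.70-fold, and its log2 fold change was 0.77 ± 0.18 (SE; edgeR adjusted p = 0.0012). The increase passed the test in all 14 alternatives, between 0.69 and 1.04.

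Lpar6 did not pass the test. Its normalized counts were 47.6, 37.0 and 50.8 in control and 41.4, 28.9 and 33.5 in Rnf40ΔSC libraries, and the groups overlapped (log2 fold change -0.37 ± 0.22 SE; edgeR adjusted p = 0.217). Lpar6 is a gene of 1 exon on chromosome 14 (73637698 to 73640165, plus strand, in mm9) that lies within Rb1 on the opposite strand. Exons annotated to Rb1 cover 408 of its 2468 bases. The strand setting of the counting was not given in the sources used here, so reads from these bases cannot be assigned to either gene.

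Lpar2 and Lpar3 were close to the limit of detection. Lpar2 had 2, 0 and 4 reads in control and 2, 5 and 2 reads in Rnf40ΔSC libraries, and Lpar3 had 1, 1 and 5 against 2, 1 and 2. Neither had enough reads to be tested.

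The makeup of the LPA receptor reads can be compared without any scaling between libraries. Lpar1 took 82.4%, 82.9% and 79.6% of the reads of the 5 LPA receptor genes in control and 74.3%, 74.6% and 71.2% in Rnf40ΔSC replicates 1, 2 and 3. Lpar4 took 7.76%, 10.2% and 8.67% in control and 16.1%, 17.6% and 19.9% in Rnf40ΔSC libraries. The exact 95% binomial (Clopper-Pearson) interval of the Lpar4 share ran from 7.66% to 13.1% in control replicate 2, the highest control, and from 13.2% to 19.4% in Rnf40ΔSC replicate 1, the lowest Rnf40ΔSC library. Such intervals cover counting error only. There were 0.109 ± 0.0142 reads of Lpar4 per read of Lpar1 in control and 0.244 ± 0.0320 in Rnf40ΔSC nerves (SD, n = 3 each), 2.25 times as many. Lpar4 was higher and Lpar1 lower in every Rnf40ΔSC library than in any control library, so the groups could not overlap in this ratio. It adds no evidence beyond the single genes. With 3 libraries against 3 the smallest two-sided p of an exact permutation test is 0.1.

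**Figure D2:**
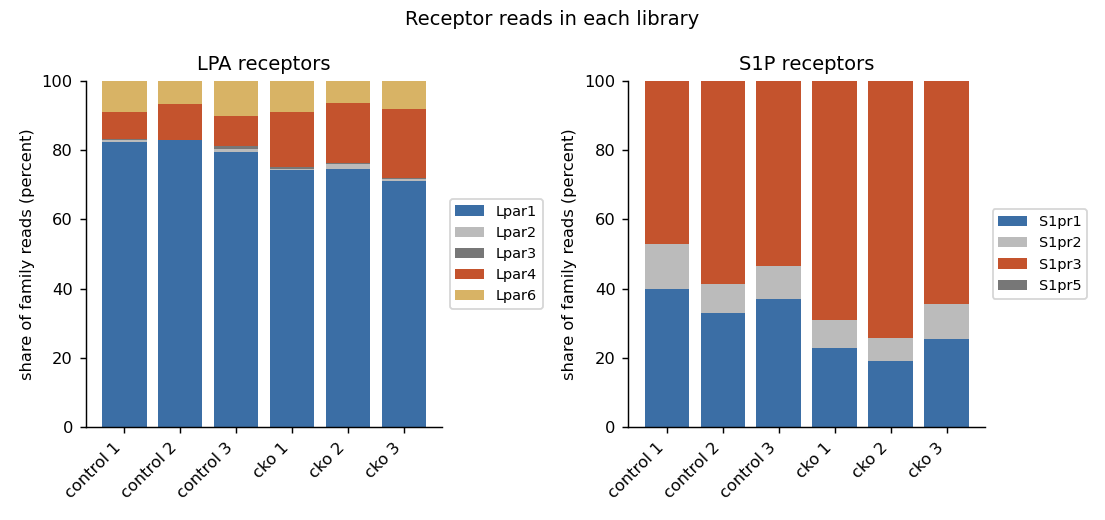
Share of each receptor gene in the reads of its family (y axis, percent) in each of the 3 control and 3 Rnf40ΔSC (cko) libraries, LPA receptors on the left and S1P receptors on the right. Lpar4 took 7.76% to 10.2% of LPA receptor reads in control and 16.1% to 19.9% in Rnf40ΔSC libraries, and S1pr3 was the largest part of the S1P receptor reads in every library.

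S1pr1 was lower and S1pr3 was higher in Rnf40ΔSC nerves. S1pr1, on chromosome 3 (115413351 to 115417973, minus strand, in mm9), encodes a receptor that couples to Gi. It had 72, 88 and 126 reads in control and 68, 51 and 98 in Rnf40ΔSC replicates 1, 2 and 3, or 114, 95.9 and 108.5 against 56.3, 61.5 and 78.2 normalized counts. No Rnf40ΔSC library reached the level of a control library. Means were 106.2 ± 9.42 in control and 65.3 ± 11.4 in Rnf40ΔSC nerves (SD, n = 3 each). The fitted level was 1.61-fold lower, a log2 fold change of -0.69 ± 0.16 (SE; edgeR adjusted p = 0.00113). It passed in all 14 alternatives, between -0.84 and -0.42, with adjusted p up to 0.0432 under total-count scaling in edgeR.

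Endothelial markers were lower together with S1pr1. Of 10 such genes 6 fell, 0 rose in edgeR or DESeq2 or at an unadjusted p under 0.05, and the median log2 fold change was -0.54. With total-count scaling 2 of the 10 were lower. The list summed to 1710, 1505 and 1724 normalized counts in control and 1088, 1073 and 1305 in Rnf40ΔSC libraries. Its most abundant gene, Cdh5 (VE-cadherin), made up 32.7%, and none of the 10 was at 0. Cdh5 had a log2 fold change of -0.51 ± 0.10 (SE; edgeR adjusted p = 0.000119), and Pecam1 one of -0.44 ± 0.10 (SE; edgeR adjusted p = 0.000646), but neither passed with total-count scaling (-0.24 and -0.17). Per read of Cdh5 there were 0.215, 0.192 and 0.186 reads of S1pr1 in control and 0.165, 0.171 and 0.181 in Rnf40ΔSC libraries. The groups did not overlap in this ratio, yet its means of 0.197 ± 0.0155 and 0.172 ± 0.00818 (SD, n = 3 each) lay closer than those of S1pr1 itself. Per read of Pecam1, S1pr1 had 0.2424, 0.2444 and 0.2428 reads in control and 0.1775, 0.1969 and 0.2322 in Rnf40ΔSC libraries. These groups did not overlap either, at 0.243 ± 0.00108 and 0.202 ± 0.0277 (SD, n = 3 each). The part of endothelial cells in the lower S1pr1 was not tested.

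S1pr3, on chromosome 13 (51503987 to 51518166, plus strand, in mm9), encodes a receptor that couples to Gi, Gq and G12/13. Its normalized counts were 135, 170.0 and 157 in control and 171, 239 and 197 in Rnf40ΔSC replicates 1, 2 and 3. The highest control library and the lowest Rnf40ΔSC library were nearly level. The mean was 154 ± 17.7 in control and 202 ± 34.3 in Rnf40ΔSC nerves (SD, n = 3 each). The fitted level was 1.29-fold higher, a log2 fold change of 0.37 ± 0.13 (SE; edgeR adjusted p = 0.0223). This was the least stable of the 5 calls. It was lost with DESeq2 (0.38, DESeq2 adjusted p = 0.0825), and in edgeR without control replicate 1 (0.30, adjusted p = 0.113), without control replicate 3 (0.38, adjusted p = 0.0755) and without Rnf40ΔSC replicate 2 (0.25, adjusted p = 0.161). Over all alternatives, adjusted p ranged from 0.000128 to 0.161 in edgeR and DESeq2.

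Pericyte and smooth muscle markers did not share the direction of S1pr3. Of 8 genes 5 fell and 0 rose in edgeR and in DESeq2, and 0 were higher at an unadjusted p under 0.05. The median was -0.60, and 3 were lower with total-count scaling. Their sum was 2231, 1709 and 1944 normalized counts in control and 1195, 1196 and 1483 in Rnf40ΔSC libraries. Pdgfrb was the most abundant at 24.9%, and none was at 0. Per read of Pdgfrb, S1pr3 had 0.312 ± 0.0350 reads in control and 0.643 ± 0.0830 in Rnf40ΔSC nerves (SD, n = 3 each). The part of these cells in the level of S1pr3 was not tested.

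Within the S1P receptor family the balance shifted between these genes. S1pr1 took 40.0%, 33.1% and 37.0% of family reads in control and 22.8%, 19.1% and 25.5% in Rnf40ΔSC replicates 1, 2 and 3. S1pr3 took 47.2%, 58.6% and 53.4% in control and 69.1%, 74.2% and 64.3% in Rnf40ΔSC libraries. There were 1.18, 1.77 and 1.44 reads of S1pr3 per read of S1pr1 in control and 3.03, 3.88 and 2.52 in Rnf40ΔSC libraries. The lowest Rnf40ΔSC ratio was above the highest control ratio, and the means were 1.47 ± 0.297 and 3.14 ± 0.688 (SD, n = 3 each).

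**Figure D3:**
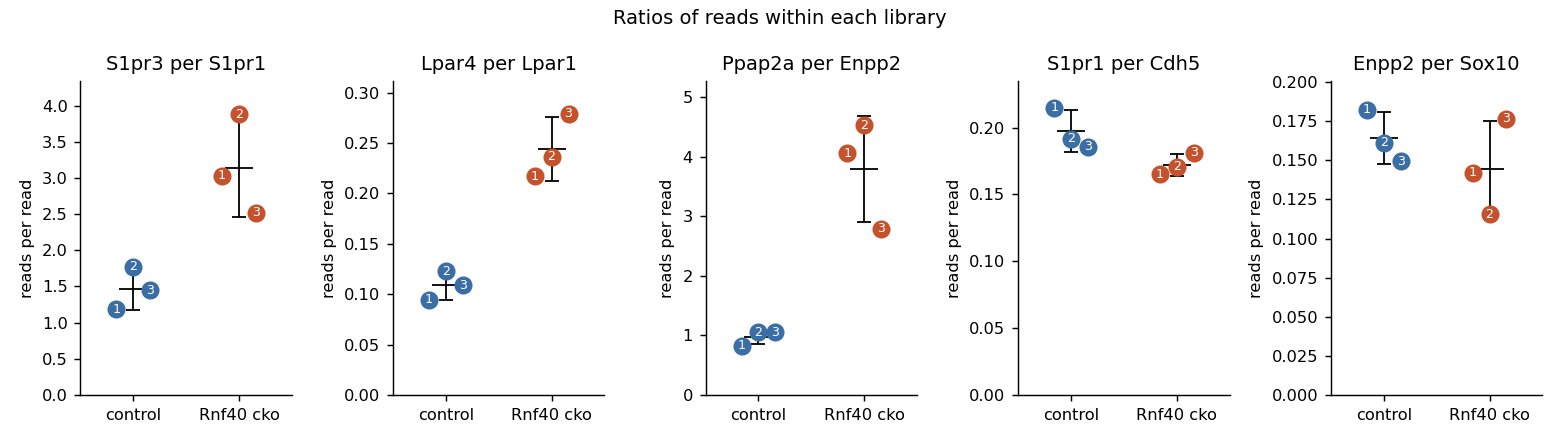
Reads of the first gene per read of the second (y axes, from 0) in the 3 control (blue) and 3 Rnf40ΔSC (cko, red) libraries; digits are replicate numbers, and black marks show the mean and SD. S1pr3 per S1pr1 was 1.18 to 1.77 in control and 2.52 to 3.88 in Rnf40ΔSC libraries, Ppap2a per Enpp2 was 0.827 to 1.05 against 2.79 to 4.53, and Enpp2 per Sox10 overlapped.

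S1pr2 and S1pr5 gave no call. S1pr2, a receptor that acts mainly through G12/13, had between 18 and 39 reads per library and overlapping groups of 29.6 ± 6.36 and 24.2 ± 6.04 normalized counts (SD, n = 3 each; log2 fold change -0.25 ± 0.27 SE; edgeR adjusted p = 0.532). With total counts, where the median of all genes moved up by 0.27, it was at 0.02 and did not pass. With each library left out, S1pr2 ran from -0.48 (without Rnf40ΔSC replicate 3) to -0.09 (without Rnf40ΔSC replicate 1), and it passed in none of these fits. S1pr5, known from oligodendrocytes and natural killer cells, had 0 reads in all 6 libraries. A count of 0 allows up to 3 counts, which is 1.24 to 2.47 CPM (reads scaled by library size) in these libraries.

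**Figure D4:**
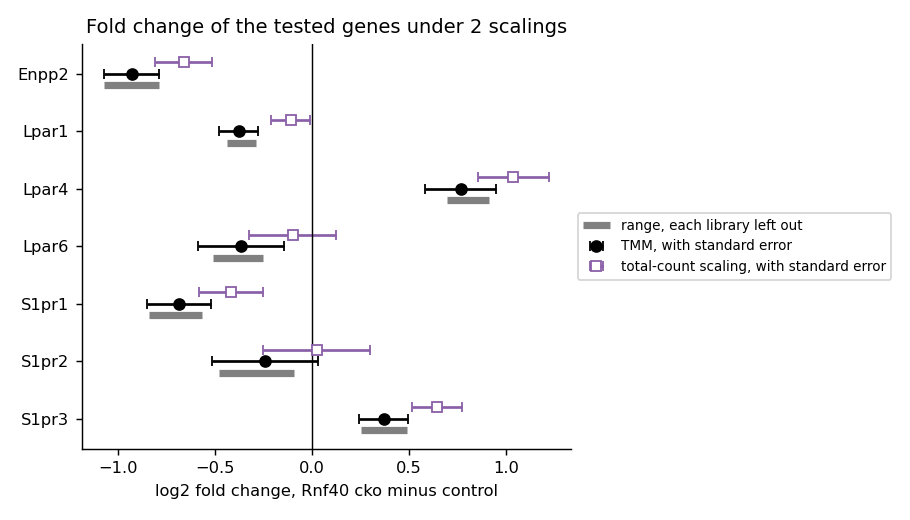
Log2 fold change of Rnf40ΔSC (cko) minus control (x axis) for the 7 tested genes with TMM scaling (black, standard error) and with total-count scaling (open squares, standard error), and the range when each of the 6 libraries was left out (grey). Total-count scaling moved the genes up, took Lpar1 from -0.38 to -0.11 and S1pr2 from -0.25 to 0.02, and left Enpp2 and S1pr1 below 0 and Lpar4 and S1pr3 above.

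Levels of different genes were compared as TMM-scaled CPM per kilobase of exon. In control nerves the order was Lpar1 at 51.8 ± 3.65, Enpp2 at 25.2 ± 0.970, S1pr1 at 18.2 ± 1.61, S1pr3 at 17.8 ± 2.04, Lpar6 at 9.49 ± 1.51, Lpar4 at 5.71 ± 0.953 and S1pr2 at 5.46 ± 1.17 (SD, n = 3 each). Libraries of S1pr1 and S1pr3 overlapped, as did those of Lpar4 and S1pr2, so these neighbours were not separated. In Rnf40ΔSC nerves S1pr3 was second at 23.4 ± 3.97, followed by Enpp2 at 13.0 ± 2.88, S1pr1 at 11.2 ± 1.96 and Lpar4 at 9.77 ± 0.476 (SD, n = 3 each), where Enpp2 overlapped with S1pr1, and S1pr1 with Lpar4. Lpar1 stayed first at 39.9 ± 3.70 (SD, n = 3). Lpar6 and S1pr2 had 7.27 ± 1.33 and 4.46 ± 1.11 there (SD, n = 3 each). Lpar3 had 0.484 and 0.309 and Lpar2 0.196 and 0.275 on average in control and Rnf40ΔSC nerves, with overlapping libraries, and S1pr5 was at 0. With coding length in place of exon length, S1pr3 and Enpp2 changed places in control.

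Genes that make, move and remove the lipids, and genes that relay the receptor signal, were taken from 5 lists. Of the 79 of their genes found under the symbols used, 59 were tested, 12 were higher and 15 were lower in Rnf40ΔSC nerves, or 20.3% and 25.4%, against 15.4% and 16.2% of all genes tested. The median log2 fold change was -0.08 against -0.00 over all genes tested. With total-count scaling 17 of the 59 were higher and 2 lower, against 3766 and 880 of all 11371 genes tested. Without control replicate 3 there were 6 higher pathway genes, against 1280 of all genes tested. DESeq2 gave 9 lower genes. Of 8 tested genes of LPA supply and removal, 2 were higher and 4 lower, with a median of -0.41, and 2 were lower without control replicate 1. With total-count scaling edgeR gave 2 higher and 0 lower, 1 being lower at an unadjusted p under 0.05, and DESeq2 with its own scaling gave 2 higher and 2 lower. Ppap2a and Ppap2b encode lipid phosphate phosphatases that remove the phosphate of extracellular LPA and S1P. Ppap2a was at 144.5, 179 and 170.4 normalized counts in control and 363, 300.1 and 292 in Rnf40ΔSC libraries. Its log2 fold change was 0.94 ± 0.11 (SE; edgeR adjusted p = 2.06e-08), and that of Ppap2b 0.42 ± 0.09 (SE; edgeR adjusted p = 0.000289). Ppap2c of the same family, with 5 to 26 reads per library, was at -0.78 ± 0.37 (SE) and did not pass. There were 0.827, 1.05 and 1.05 reads of Ppap2a per read of Enpp2 in control and 4.06, 4.53 and 2.79 in Rnf40ΔSC libraries.

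The genes of this list that fell encode acyltransferases that turn LPA into phosphatidic acid inside cells. They were Agpat1 (-0.42), Agpat2 (-0.50), Agpat3 (-0.41) and Agpat4 (-0.94). None of the 4 passed with total-count scaling, and the calls of Agpat2 and Agpat4 were also lost with DESeq2. Agpat4 further lost it without control replicate 1 (-0.81), and Agpat2 without control replicate 1 (-0.43) or 3 (-0.40) and without Rnf40ΔSC replicate 1 (-0.43) or 2 (-0.53).

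Of 10 tested genes of S1P supply, export and removal, 2 were higher and 3 lower, with a median of -0.33. Without control replicate 3 there was 1 higher gene, and without Rnf40ΔSC replicate 1 there was 1 lower gene. With total-count scaling edgeR gave 2 higher and 0 lower, 1 being lower at an unadjusted p under 0.05, and DESeq2 with its own scaling gave 2 higher and 2 lower. Abca1, best known as a cholesterol exporter, had 198 ± 16.3 normalized counts in control and 359 ± 16.9 in Rnf40ΔSC nerves (SD, n = 3 each; log2 fold change 0.86 ± 0.10 SE; edgeR adjusted p = 2.71e-08). Sgpp1, an S1P phosphatase, was at 0.41 ± 0.10 (SE; edgeR adjusted p = 0.00243) and lost its call without control replicate 3 (0.31). Sgpl1, the S1P lyase, was at -0.52 ± 0.13 (SE; edgeR adjusted p = 0.00234) and lost its call without Rnf40ΔSC replicate 1 (-0.33). Asah1, a lysosomal ceramidase that frees sphingosine, was at -0.50 ± 0.10 (SE; edgeR adjusted p = 0.000192). The S1P exporter gene Spns2, with 22 to 43 reads per library, was at -0.66 ± 0.24 (SE; edgeR adjusted p = 0.0313) and lost its call in 8 of 14 alternatives, among them each library left out except control replicate 3. The 3 genes that fell did not pass with total-count scaling. The kinase gene Sphk1 had 1 to 10 reads per library and was not tested.

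Of the other lysolipid receptor genes 2 of 9 were tested, and with all 6 libraries 0 passed in edgeR or DESeq2 or had an unadjusted p under 0.05. In edgeR 1 was lower without Rnf40ΔSC replicate 1 and 1 without Rnf40ΔSC replicate 3. They had a median of -0.73, with 4 to 21 reads per library for Gpr34 and 4 to 18 for Gpr4. Lpar5 had 1 read in all 6 libraries together.

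Among the tested genes of the G protein list, 6 of 23 were higher and 5 lower in edgeR, 4 and 3 in DESeq2, and 2 and 3 in edgeR without control replicate 3. The median was 0.03. It was -0.05 without control replicate 2, -0.01 without Rnf40ΔSC replicate 1 or 3, and 0.30 with total-count scaling, where 8 genes were higher and 1 lower. By that scaling 3766 of all 11371 genes tested were higher and 880 lower. The alpha subunits through which the receptors act moved in different directions. Gnai1 had 470.0, 552 and 549 normalized counts in control and 957, 930.5 and 893 in Rnf40ΔSC libraries, whereas Gnai2 had 991, 885 and 931 in control and 649.9, 707 and 686 in Rnf40ΔSC libraries. Log2 fold changes were 0.82 ± 0.09 for Gnai1 and -0.46 ± 0.09 for Gnai2 (SE; edgeR adjusted p = 6.44e-09 and 0.000124). Gnai2 fell short of the test with total-count scaling (-0.19). Reads of Gnai1 per read of Gnai2 were 0.474, 0.624 and 0.590 in control and 1.47, 1.32 and 1.30 in Rnf40ΔSC libraries. Gnaq was higher (0.34, edgeR adjusted p = 0.00648), and lost its call without control replicate 3 (0.31) or Rnf40ΔSC replicate 1 (0.29). Gna11 was at 0.26 and Gna12 at -0.28, calls lost in 8 and 10 of 14 alternatives. Gnai3 and Gna13 did not pass (edgeR adjusted p = 0.673 and 0.768).

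Downstream of these subunits, Rac1 rose by 0.40 ± 0.09 on the log2 scale (SE; edgeR adjusted p = 0.000675), and so did Rock1, which encodes a protein kinase, by 0.52 ± 0.14 (SE; edgeR adjusted p = 0.0048). In Rock1 the groups overlapped, and its call was lost without control replicate 3 (0.39). Rock2 (0.25) and Rhoc (-0.52) complete the counts and were chosen after their values were seen. The arrestin gene Arrb2 was at -0.68 ± 0.17 (SE; edgeR adjusted p = 0.0016). Rgs5, a regulator of G protein signalling that is also in the pericyte list, was at -0.53 ± 0.12 (SE; edgeR adjusted p = 0.000828) and did not pass with total-count scaling (-0.26).

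Of 16 tested genes known as targets of YAP or SRF, 2 were higher and 3 lower (12.5% and 18.8%), with a median of -0.04. Of all genes tested, 15.4% were higher and 16.2% lower. With each library left out, the list median ran from -0.14 (without control replicate 3) to 0.0047 (without Rnf40ΔSC replicate 2). Without control replicate 3 there were 1 higher and 2 lower genes. With total-count scaling 5 were higher and 1 lower, with a median of 0.23, against 3766 higher and 880 lower of all 11371 genes tested. Egr1 had 55.3 ± 4.37 normalized counts in control and 87.4 ± 6.41 in Rnf40ΔSC nerves (SD, n = 3 each; log2 fold change 0.68 ± 0.17 SE; edgeR adjusted p = 0.00211). Vcl, which encodes vinculin of cell adhesions, was at 0.33 ± 0.10 (SE; edgeR adjusted p = 0.00739), without control replicate 3 at 0.32 (edgeR adjusted p = 0.0551). The contractile genes Tagln and Myl9 were at -0.63 ± 0.13 and -0.51 ± 0.10 (SE; edgeR adjusted p = 0.000238 and 0.000102), in the same direction as the pericyte and smooth muscle markers, whose part was not tested. Myl9 did not pass with total-count scaling (-0.24). Amotl2 was at -0.28 and lost its call in 9 of 14 alternatives.

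**Figure D5:**
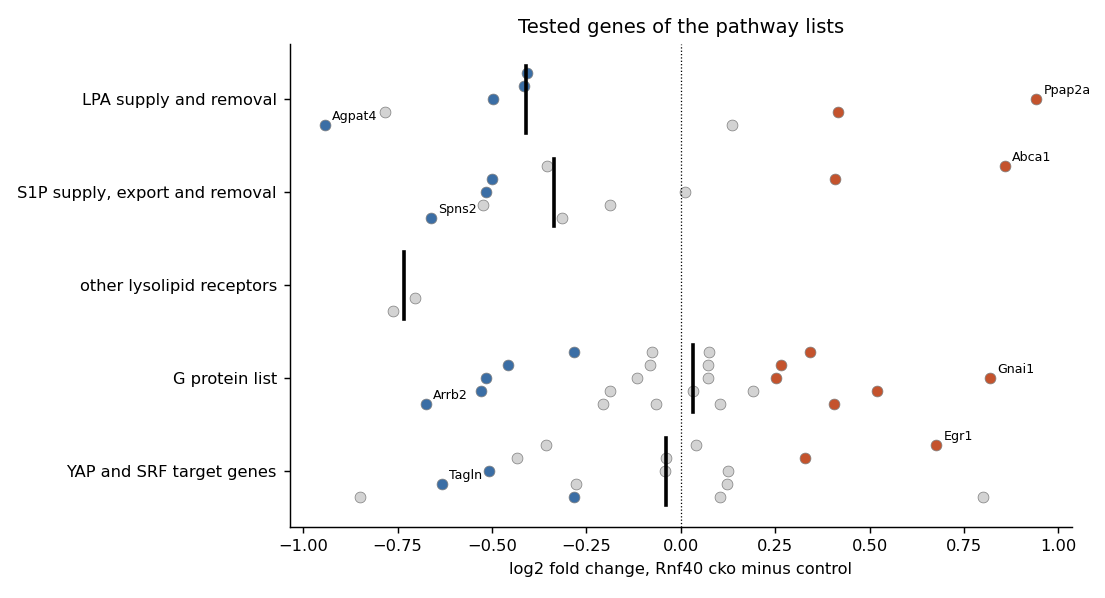
Log2 fold change of Rnf40ΔSC minus control (x axis, TMM scaling) of each of the 59 tested genes in the 5 lists (y axis); red and blue points passed with higher and lower levels, grey points did not pass, and black bars are medians. Of these genes 12 were higher and 15 lower, with 6 and 5 in the G protein list.

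Markers of other cells that a dissected nerve can hold differed between libraries as well. Macrophage markers were lower in 7 of 9 tested genes (median -0.47) in edgeR, in 4 of 9 in DESeq2 or in edgeR without control replicate 2, and in 2 of 9 with total-count scaling. They summed to 949.5, 895 and 962 normalized counts in control and 649, 644 and 659.9 in Rnf40ΔSC libraries, with Csf1r the most abundant. Perineurial markers were lower in 3 of 5 and higher in 1 (median -0.28, and -0.01 with total-count scaling), and their sums of 1653, 1920.0 and 1892 against 1100.0, 905 and 1007 were led by Itgb4. Without Itgb4, these sums were closer, at 840, 993.7 and 939.9 in control and 813, 671.3 and 696.6 in Rnf40ΔSC libraries. Adipocyte markers were lower in 3 of 7 (median -0.65), with sums of 2286, 1689 and 2899 against 1805, 1658 and 1316 and Fabp4 as the most abundant gene. These sums overlapped between the groups. In this list 2 of 7 were lower with total-count scaling (median -0.38) and without Rnf40ΔSC replicate 3 (median -0.40).

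Markers of immature or promyelinating SCs were split, with 4 of 6 genes higher and 2 lower (median 1.49). The lower genes were L1cam (-1.87) and Ngfr (-0.90). The sums of this list were 1278, 1332 and 1259 in control and 2656, 3352 and 2694 in Rnf40ΔSC libraries, with Pou3f1 at 46.3%. Without Pou3f1 they were closer, at 863.8, 938.2 and 929.6 in control and 1264, 1452 and 1300 in Rnf40ΔSC libraries. Markers of cycling cells were higher in 2 of 5 (median 0.62), at sums of 189, 196 and 215 against 264, 268 and 333, led by Mki67. Lymphocyte markers summed to at most 21.8 in any library, mostly from Ptprc, the one gene tested, which did not pass, and Cd79a was at 0. Of the 5 red blood cell genes, the globin genes Hbb-b1, Hbb-b2, Hba-a1 and Hba-a2 were at 0, and Alas2 did not pass (-0.65), though it was lower without Rnf40ΔSC replicate 3 (-1.30). Alas2 had 12 to 42 reads per library. Counts of 0 from uniquely mapped reads do not show that red blood cells were absent.

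Of the 15 skeletal muscle markers 0 passed in edgeR or DESeq2 or at an unadjusted p under 0.05 with all libraries, and 13 were lower without Rnf40ΔSC replicate 3. Myh4 was the most abundant. Without that library Enpp2 was at -1.07, S1pr1 at -0.84, Lpar1 at -0.29 and S1pr3 at 0.38, and all 4 passed in edgeR. Leaving the 15 genes out of the library sizes, an alternative chosen after seeing the data, gave the same higher members, Lpar4 and S1pr3, and the same lower members, Lpar1, S1pr1 and Enpp2. The part of these cell types in the levels of the lysolipid genes was not tested.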

How the data were processed

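RNA-Seq of 3 control and 3 Rnf40ΔSC libraries was analysed from the deposited counts of uniquely mapped reads per gene symbol. Per the study's methods, the authors aligned reads to mm9 with TopHat and counted them with HTSeq; the submitters' processing notes also list Bowtie2 and mm10. Annotation and strand setting are not given in the sources used here, and labels and methods name different library kits. Genes were filtered by filterByExpr (11371 kept), scaled by TMM and tested with edgeR 4.0.16 in R 4.3.3 (quasi-likelihood, robust, genotype only), with Benjamini-Hochberg adjustment over all tested genes. SE is the log2 fold change divided by the root of its F. Normalized counts are scaled to the arithmetic mean of the 6 effective library sizes, and the base mean is their average. The geometric mean, with which the numbers of genes past the study's limits equal those of an earlier analysis of these data, is given as an alternative. Alternatives were RLE and total-count scaling, DESeq2 1.42.0 with and without its prior, other filters, the replicate block and each library left out; muscle genes left out of library sizes and the geometric mean were added after seeing the data. The fitting was tested on simulated data. Exon lengths and coordinates are from GENCODE vM1 (NCBIM37, mm9). Named genes are all members, per list the called genes with the 6 smallest p, the G protein alpha subunits with at least 20 normalized counts, and genes of label checks and ratios; other list and marker genes are named as examples, some after their values were seen. Members and lists were chosen with earlier results of these data known. A few marker and neighbour genes, and sums over the marker lists that hold them, are not reported here.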

Additional observations from a re-analysis of the deposited data

How the results depend on the processing

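Among the members, Enpp2, S1pr1 and Lpar4 kept direction and call in all 14 alternatives that refit the data, Lpar1 lost its call in 1 and S1pr3 in 5. Total-count scaling shifted the median of all genes by 0.27 and gave 3766 higher and 880 lower genes in place of 1756 and 1841, with 18.9% of calls lower in place of 51.2%; at the study's limits it gave 1020 higher and 263 lower genes in place of 424 and 574. It left 1 member higher (Lpar4) and 0 lower at the study's limits, 2 pathway genes lower in place of 15, and Rnf40 at -0.27. The same shift took S1pr2 (0.0226) and Gnai3 (0.20), neither of which passed, to the other side of 0. DESeq2, with or without its prior, gave 1 higher member in place of 2 and 9 lower pathway genes in place of 15. The cause of these differences was not tested.

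With each library left out, members higher by adjusted p ranged from 1 to 2, members past the study's limits from 0 to 1 higher and from 0 to 2 lower, and higher pathway genes from 6 (without control replicate 3) to 13. Gna13 ranged from -0.10 to 0.22 and Gnai3 from -0.13 to 0.0254. These fits have fewer samples.

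With the geometric mean, chosen after seeing the data, in place of the arithmetic mean of library sizes in the base mean, 415 genes were higher and 567 lower at the study's limits, and the members' counts were 0 and 1 as before. Same-numbered libraries did not deviate together (correlations of -0.116, -0.065 and -0.059), and the numbers are read as names only. The replicate block gave 1727 higher and 1837 lower genes, 2 higher and 3 lower members, and S1pr3 at 0.39. Depth limits what could be detected for Lpar2, Lpar3 and S1pr5.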

Other observations

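For each member with a call, the tested genes nearest to it over the 6 libraries were listed by the root mean square difference of centred log2 CPM. For Enpp2 the nearest included Hn1l (0.0437) and Akip1 (0.0549), where the median over all tested genes was 0.582. For S1pr1 they were Msrb1 (0.0325), Crat (0.0554) and Esyt1 (0.0557), with a median of 0.463. Lpar1 was nearest to Hook3 (0.0285), Fam63b (0.0384) and Fam65b (0.0395), with a median of 0.344. Lpar4 was nearest to Ptpn14 (0.0654), Zfp870 (0.0741) and Rab36 (0.0764), with a median of 0.489. For S1pr3 the nearest included Zfp580 (0.0411) and Tle3 (0.0426), with a median of 0.374. These distances are a description, and 11371 genes were searched for each member.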
